A study of Homo sapiens with 12 samples.

Results

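The 2 mature arms of miR-21, `hsa-miR-21-5p` and `hsa-miR-21-3p`, were followed in small RNA sequencing of extracellular vesicles (EV) secreted along the differentiation of human induced pluripotent stem cells (hiPSC) into cardiomyocytes. Both were taken by name, as 2 of the 1133 miRNA listed in the count table. Both also belonged to the 367 expressed miRNA, which reached a counts-per-million value (CPM) of 5 in all 3 libraries of some EV group. The 12 libraries came from a single established hiPSC line, iPS(IMR90)-4, with 3 EV preparations from independent cultures in each of 4 groups. hiPSC-EV were separated from expansion medium at day 0, after 24 h of conditioning, and CPC-EV (cardiac progenitor cells) from differentiation medium at day 6, after 72 h. CMi-EV (immature cardiomyocytes) came from maintenance medium at day 15 and CMm-EV (more mature cardiomyocytes) from maturation medium at day 35, both after 48 h. Stage, medium, hours of conditioning and, from CPC-EV to CMi-EV, the move of the cells into suspended aggregates changed together, so their parts in any difference cannot be told apart.

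Primary miR-21 transcripts are cut to a hairpin in the nucleus, and Dicer releases the 2 arms in the cytoplasm. In most tissues the 5p arm is loaded into Argonaute as the guide strand and pairs with messenger RNA through its seed, while most of the 3p arm is degraded. miR-21-5p is abundant in many cell types, is raised in tumours and in the stressed heart, where fibroblasts are a main source, and represses transcripts such as PDCD4 and SPRY1. EV carry part of the miRNA of a cell into the medium, and miR-21-5p is among the miRNA often found there.

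The hairpin of miR-21 lies on chromosome 17, plus strand, chr17:59841266-59841337 in RefSeq on GRCh38.p14. It has 72 bases, of which the 5p arm takes bases 8 to 29 (chr17:59841273-59841294). In GENCODE 44 this interval falls inside VMP1, a gene of autophagy (chr17:59707192-59842255, same strand), in the exon that ends 6 of its 9 protein-coding transcripts. There it is part of the 3′ untranslated region, 1358 bases after the last coding base and 918 bases before the end of the gene. The next annotated gene considered, TUBD1, lies 17224 bases beyond VMP1 on the other strand.

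The RefSeq sequence of miR-21-5p is shown beside that of miR-590-5p, since among 2370 mature miRNA names these 2 alone share bases 2 to 8, the seed, which is printed in capitals.
hsa-miR-21-5p: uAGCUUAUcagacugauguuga
hsa-miR-590-5p: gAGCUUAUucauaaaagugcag
Past the seed the 2 sequences differ, and miR-590-5p is a product of another locus, chr7:74191213-74191234 on the plus strand. No value of miR-590-5p was analysed here. Its partner arm miR-590-3p was listed at low levels, with group means between 3.40 CPM in CMm-EV and 22.3 CPM in CMi-EV, and did not pass the expression filter.

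The counts on miRNA behind these values ranged from 703428 to 5598319 in hiPSC-EV, from 1539058 to 3380626 in CPC-EV, from 1364740 to 2163522 in CMi-EV and from 984874 to 6272470 in CMm-EV. Levels are given as CPM after scaling by the trimmed mean of M-values (TMM) over all 12 libraries, and as the plain percentage of miRNA counts. The libraries carried the miRNA of their labelled stage. The summed level of 8 pluripotency miRNA, led by miR-302b-3p, fell from 186608 ± 20570 CPM (SD, n = 3) in hiPSC-EV through 65956 ± 15617 CPM in CPC-EV and 5392 ± 1376 CPM in CMi-EV to 183 ± 103 CPM in CMm-EV. miR-302b-3p gave most of it in each group. In the first of these steps, 2 of 7 tested members were called lower and 0 higher, beside 27.5% of all tested miRNA called. miR-302b-3p was 1 of the 2 (log2 fold change -1.11), but lost its call with library size only and with median-of-ratios scaling (-0.99 in both). The means of miR-371a-3p, miR-372-3p and miR-373-3p rose in this step without a call, that of miR-372-3p from 177 to 258 CPM. Those of the other members fell. The summed level of 7 cardiomyocyte miRNA, led by miR-1-3p, rose as far as CMi-EV, from 60.4 ± 12.3 CPM in hiPSC-EV and 1058 ± 404 CPM in CPC-EV to 50263 ± 27389 CPM. In CMm-EV it was 38540, 52665 and 217018 CPM, overlapping with CMi-EV, and 0 of the 7 were called between these groups, beside 16.6% of all tested miRNA.

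miR-21-5p was detected in every library, and its expected counts were whole numbers in all 12. In hiPSC-EV its level was 5807, 6280 and 10229 CPM in libraries 1, 2 and 3. In CPC-EV it was 1686, 1552 and 1251 CPM. The CMi-EV libraries had 3799, 4204 and 7167 CPM, and the CMm-EV libraries 5662, 7155 and 8281 CPM. The 3 CPC-EV libraries were thus the lowest of the 12, with no overlap between their highest value (1686 CPM) and the lowest of the 9 others (3799 CPM), whereas the other groups overlapped with each other. How many of all expressed miRNA had CPC-EV set apart in this way is not given here. The separation, in CPM or in the shares and ranks below, is therefore not read as particular to miR-21-5p.

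The group means of miR-21-5p were 1496 ± 223 CPM (SD, n = 3) in CPC-EV, 5057 ± 1839 CPM in CMi-EV, 7033 ± 1314 CPM in CMm-EV and 7439 ± 2428 CPM in hiPSC-EV, in rising order. Libraries of CPC-EV and CMi-EV did not overlap, whereas in the 2 later steps of that order the libraries of neighbouring groups did. In a bulk preparation, fewer vesicles that carry miR-21-5p and fewer copies per vesicle cannot be told apart.

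**Figure D1:**
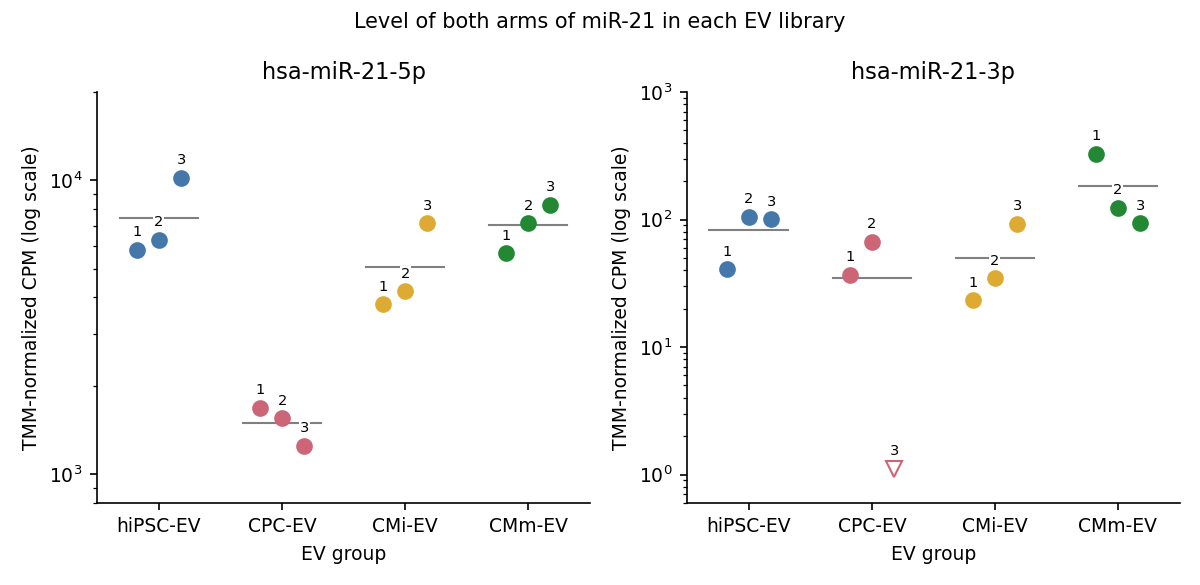
TMM-normalized CPM on a log axis of miR-21-5p (left) and miR-21-3p (right) in each library, with replicate numbers above the points and group means as grey lines, and an open triangle at the limit of 3 counts for CPC-EV 3, where miR-21-3p had no count. The 3 CPC-EV libraries, between 1251 and 1686 CPM of miR-21-5p, lie below all 9 others.

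With no scaling between libraries, miR-21-5p made up 0.733% ± 0.116 of the miRNA counts (SD, n = 3) of hiPSC-EV but 0.222% ± 0.0384 of those of CPC-EV, and later 0.533% ± 0.171 at the CMi-EV stage and 0.435% ± 0.0375 in CMm-EV. The lowest share was that of CPC-EV 2, 0.185% (95% Wilson interval 0.181% to 0.190%), and the highest that of hiPSC-EV 3, 0.858% (0.851% to 0.866%). The shares of CPC-EV reached at most 0.262%, below the lowest share elsewhere, 0.399% in CMi-EV 1. Across the 4 groups the shares differed (exact permutation test of the sum of squares between groups over 15400 divisions of the 12 libraries, one-sided by construction, p = 0.00227). Over all reads of a library, in the reads-per-million unit (RPM), the means were 977 ± 134 for CPC-EV and, in rising order, 3239 ± 1166 (CMi-EV), 3291 ± 344 (CMm-EV) and 3933 ± 935 (hiPSC-EV).

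By mean level, miR-21-5p ranked 20 of 969 detected miRNA in hiPSC-EV and 40 of 609 in CPC-EV, then 26 of 517 (CMi-EV) and 21 of 511 (CMm-EV). In single libraries the rank ran from 17 to 24 in hiPSC-EV, from 36 to 46 in CPC-EV, from 20 to 28 in CMi-EV and from 19 to 23 in CMm-EV. The ranks of the CPC-EV libraries did not overlap with those of any other group. Ranks compare counts between miRNA, which the ligation of adapters also shapes.

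**Figure D2:**
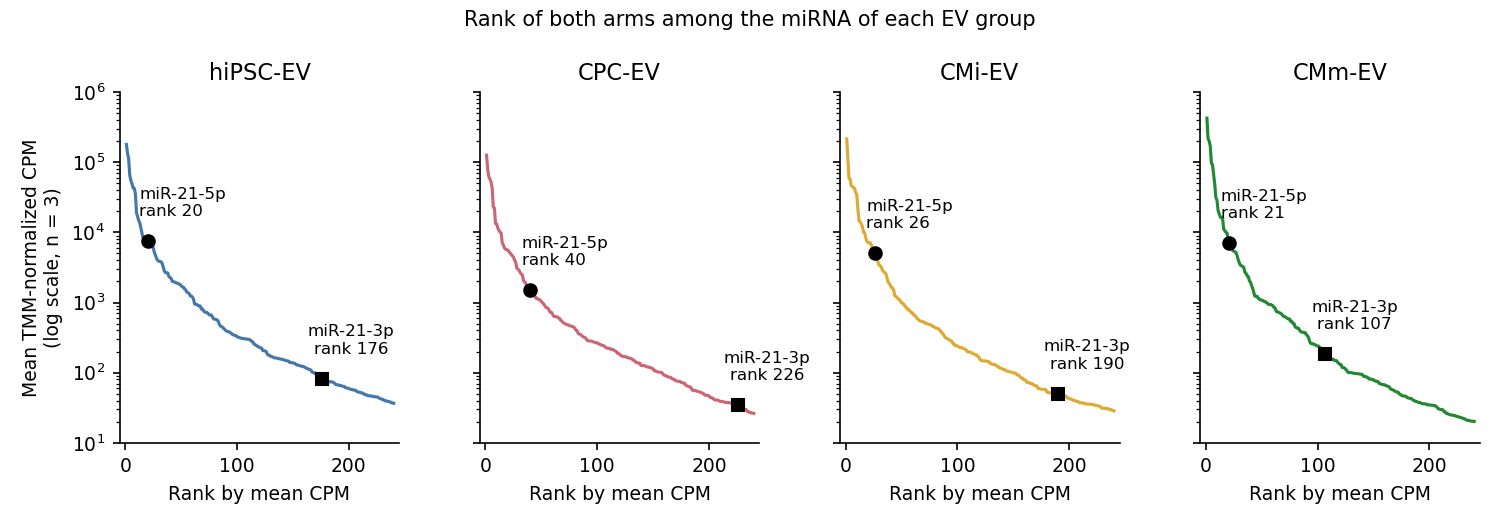
Mean TMM-normalized CPM (n = 3, log axis) against rank for the most abundant miRNA of each EV group, with miR-21-5p as a circle and miR-21-3p as a square. miR-21-5p stands at rank 40 in CPC-EV and between 20 and 26 in the other groups, and miR-21-3p between 107 and 226.

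The miRNA next to miR-21-5p in these orders were within its spread. In hiPSC-EV they were miR-423-5p above (7787 ± 2847 CPM) and miR-335-3p below (7104 ± 828 CPM). In CPC-EV, miR-25-3p (1538 ± 329 CPM) and miR-145-3p (1490 ± 420 CPM) stood around it. miR-30a-5p was just above miR-21-5p in both CMi-EV (5466 ± 617 CPM) and CMm-EV (7716 ± 139 CPM), with miR-361-5p (5027 ± 362 CPM) and miR-181a-5p (6926 ± 940 CPM) just below.

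At the top of the order, the 5 most abundant miRNA of hiPSC-EV were miR-302b-3p, miR-302a-5p, miR-92a-3p, miR-26a-5p and miR-363-3p. Those of CPC-EV were miR-302a-5p, miR-92a-3p, miR-302b-3p, miR-99b-5p and miR-191-5p. CMi-EV were led by miR-100-5p, miR-99b-5p, miR-125a-5p, miR-26a-5p and miR-1-3p, and CMm-EV by miR-100-5p, miR-125a-5p, miR-99b-5p, miR-143-3p and miR-1-3p. The leading miRNA had 178686 CPM in hiPSC-EV, and exceeded miR-21-5p by 84.0 times in CPC-EV, by 42.5 times in CMi-EV and by 60.3 times in CMm-EV.

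Between hiPSC-EV and CPC-EV, the first step of differentiation, miR-21-5p fell. Its log2 fold change was -1.89 (SE 0.24, 95% confidence interval -2.45 to -1.32, adjusted p = 0.00155 by edgeR's quasi-likelihood test with Benjamini-Hochberg adjustment), a level 3.70 times lower, and all 3 CPC-EV libraries were below all 3 hiPSC-EV libraries. Calls required an adjusted p up to 0.05 together with a change of 1 or more, up or down, on the log2 scale. Of the 2 arms, 1 was called here, beside 27.5% of the 338 miRNA tested, and 16.0% of those tested were called lower. Over all tested miRNA the median was -0.27, and the log2 fold change of miR-21-5p minus that median was -1.61.

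From CPC-EV to CMi-EV, miR-21-5p rose by a log2 fold change of 1.72 (SE 0.25, 95% confidence interval 1.12 to 2.33, edgeR adjusted p = 0.00304), in 3 of 3 libraries against each of the CPC-EV libraries. Again 1 of the 2 arms was called, beside 28.4% of 292 tested miRNA called in either direction and 14.4% called higher. The median of all tested miRNA was -0.05. Scaling moved the balance of calls in this pair, from 42 higher and 41 lower with TMM to 31 and 56 with library size only, where the log2 fold change of miR-21-5p was 1.26.

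From CPC-EV to CMm-EV the rise of miR-21-5p was 2.24 on the log2 scale (SE 0.28, 95% confidence interval 1.57 to 2.90, edgeR adjusted p = 0.00132), or 4.71 times. The other arm was not called, so 1 of 2 stood beside 44.5% called among 292 tested miRNA, and 21.2% called higher. This size rested on the scaling. With library size only, the log2 fold change was 0.97, 1.95 times, with an adjusted p of 0.00955, and missed the fold threshold, while the median of all tested miRNA moved from -0.44 to -1.70. Calls went from 62 higher and 68 lower to 33 and 114. The distance of miR-21-5p from that median was 2.68 with TMM and 2.67 with library size only.

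The 3 pairs without CPC-EV gave no call for either arm. Between CMi-EV and CMm-EV, where 16.6% of 247 tested miRNA were called and 0 of the 2 arms, the log2 fold change of miR-21-5p was 0.30 (95% confidence interval -0.38 to 0.99, edgeR adjusted p = 0.516), and -0.30 with library size only. There 16 miRNA were called higher and 25 lower with TMM, and 10 and 42 with library size only. Between hiPSC-EV and CMi-EV, with 41.4% of 338 tested miRNA called and again 0 of 2 arms, it was -0.33 (-1.08 to 0.41, edgeR adjusted p = 0.452). With single libraries left out it ran from -0.92 to -0.09, the lowest without CMi-EV 3 (adjusted p = 0.0177, not called). Between hiPSC-EV and CMm-EV, with 53.6% of 336 tested miRNA called and 0 of 2 arms, it was -0.42 (-1.23 to 0.39, edgeR adjusted p = 0.342). Without CMm-EV 1 this last value was 0.01, and with library size only it was -0.76, with an adjusted p of 0.0234 but short of the fold threshold. The intervals of the latter 2 pairs hold decreases of more than 1 on the log2 scale.

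In the test for any difference among the 4 groups, miR-21-5p passed (edgeR quasi-likelihood F-test, adjusted p = 5.29e-04), at place 51 of 367 tested miRNA by p. miR-21-3p did not (adjusted p = 0.430). So 1 of the 2 arms differed, beside 50.1% of all tested miRNA. The 6 pairs share libraries, and each group enters 3 of them.

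**Figure D3:**
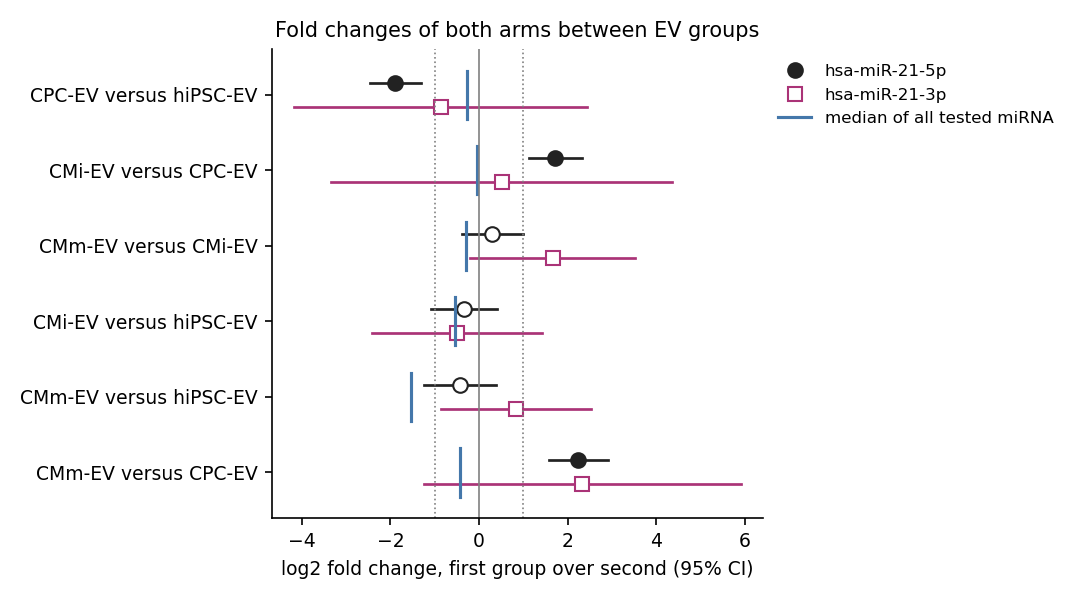
log2 fold changes of miR-21-5p (circles) and miR-21-3p (squares) between EV groups, with 95% confidence intervals, filled where called, and the median of all tested miRNA as blue bars. miR-21-5p was called in the 3 pairs that involve CPC-EV, and the intervals of miR-21-3p all cover 0.

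miR-21-3p, the arm that is mostly degraded in cells, was far scarcer. In hiPSC-EV it had 35, 265 and 472 counts, which is 40.6 CPM in library 1, 105 CPM in library 2 and 100 CPM in library 3. In CPC-EV it had 96 counts (36.8 CPM), 270 counts (66.9 CPM) and, in library 3, 0 counts, which allows up to 1.11 CPM. The CMi-EV libraries had 53, 66 and 128 counts, or 23.3, 34.6 and 92.6 CPM. The CMm-EV libraries had 271, 469 and 230 counts, or 329, 124 and 94.0 CPM. All groups overlapped, apart from CMi-EV and CMm-EV, whose nearest values were 92.6 and 94.0 CPM, and CPC-EV and CMm-EV, where the highest CPC-EV value was 66.9 CPM.

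The means of miR-21-3p were 34.6 ± 33.5 CPM (SD, n = 3) in CPC-EV, 50.2 ± 37.2 CPM in CMi-EV, then 82.1 ± 36.0 CPM (hiPSC-EV) and 182 ± 128 CPM (CMm-EV). Neighbours in this order did not differ beyond the spread between libraries. By mean level it ranked 107 in CMm-EV, 176 in hiPSC-EV, 190 in CMi-EV and 226 in CPC-EV. Among single libraries its best rank was 90, in CMm-EV 1, and its worst 264, in CMi-EV 1, leaving out CPC-EV 3.

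The fold changes of miR-21-3p were wide. Against hiPSC-EV, the log2 fold change of CPC-EV was -0.87 (SE 1.42, edgeR adjusted p = 0.709), that of CMi-EV -0.50 (SE 0.82, adjusted p = 0.650) and that of CMm-EV 0.83 (SE 0.72, adjusted p = 0.368). With single libraries left out, the value for CPC-EV ran from -1.56 to -0.26, that for CMi-EV from -1.54 to -0.25 and that for CMm-EV from 0.36 to 1.13. CMi-EV compared with CPC-EV gave 0.51 (SE 1.62, adjusted p = 0.846), which turned to -0.07 without CPC-EV 3 and to -0.22 without CMi-EV 3. The sizes were larger for CMm-EV, 1.66 against CMi-EV (SE 0.79, adjusted p = 0.236) and 2.33 against CPC-EV (SE 1.49, adjusted p = 0.270). With single libraries left out, the first of these ran from 0.99 (without CMm-EV 1) to 2.59 and the second from 1.57 to 2.93. The 95% confidence interval for CPC-EV against hiPSC-EV ran from -4.17 to 2.44, so that a decrease as large as that of miR-21-5p was within it.

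Counts on both arms come from the same library, so their proportion needs no scaling. miR-21-3p made up 0.694%, 1.65% and 0.973% of the counts on both arms in the hiPSC-EV libraries. In CPC-EV the share was 2.13%, 4.13% and 0%, the last of 3369 counts, which allows up to 0.0890%. In CMi-EV it was 0.610%, 0.816% and 1.28%, and in CMm-EV 5.48%, 1.71% and 1.12%. CPC-EV thus held both the lowest value and 1 of the 2 highest. The 95% Wilson interval of CPC-EV 2, 3.67% to 4.64%, and that of CMm-EV 1, 4.88% to 6.15%, did not reach any other library of their groups.

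As a ratio, miR-21-5p exceeded miR-21-3p by between 17.2 times (CMm-EV 1) and 163 times (CMi-EV 1) in the 11 libraries with both arms, with a median of 77.4. In CPC-EV 3 it was at least 1123 times, taking 3 counts for the absent arm. The mean log2 ratio was 5.47 ± 1.22 (SD, n = 3) in CMm-EV, 6.57 ± 0.63 in hiPSC-EV, 6.84 ± 0.54 in CMi-EV and 7.59 ± 4.47 in CPC-EV, with 0.5 counts added to each arm. The groups did not differ in it (exact permutation test over 15400 divisions, one-sided by construction, p = 0.851). Without CPC-EV 3, whose ratio rests on the added 0.5, p was 0.118.

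**Figure D4:**
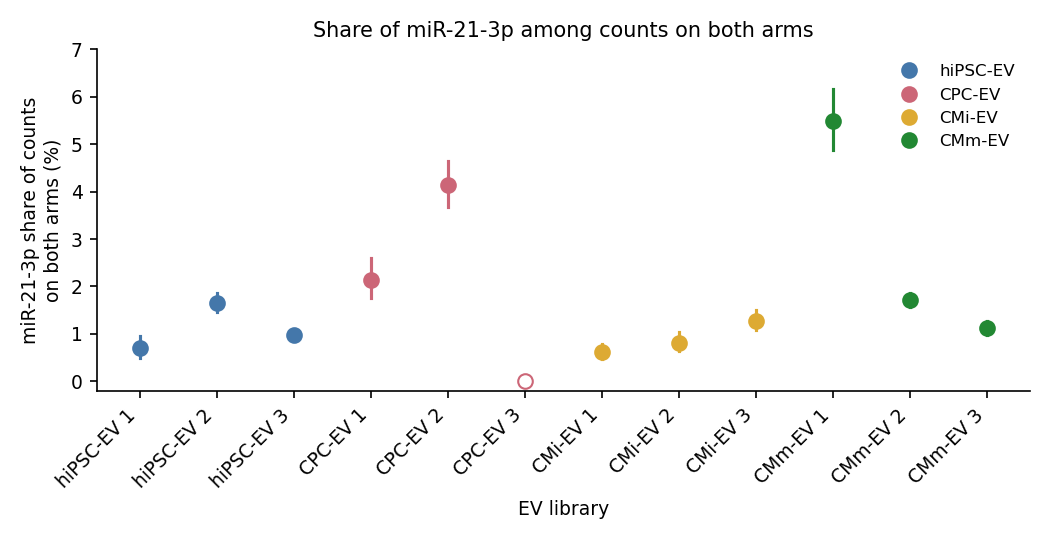
Share of miR-21-3p in the counts on both arms of miR-21, in percent, for each library, with 95% Wilson intervals as vertical lines, and an open circle for CPC-EV 3, with 0 counts of miR-21-3p. CMm-EV 1 (5.48%) and CPC-EV 2 (4.13%) lie above the other libraries.

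Among the libraries whose removal moved the values of miR-21-3p, CPC-EV 3, with no count of it, had 1539058 miRNA counts and 359 detected miRNA, near the values of CPC-EV 1 (1680160 and 421). CMm-EV 1, with the highest level of it, had 984874 miRNA counts and 279 detected miRNA, the fewest of the 12 libraries. Whether depth or the number of detected miRNA had a part in the level of miR-21-3p was not tested.

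The course of each expressed miRNA over the 12 libraries was compared with that of miR-21-5p by Pearson's r on log2(CPM + 1), as a description, since the libraries of a group share their stage and values share the scaling. The 5 with the highest r were miR-378a-3p (r = 0.942), miR-378i (0.913), miR-30e-5p (0.862), miR-30a-5p (0.846) and miR-340-3p (0.831), and the median over the 366 others was 0.0147. Their mature sequences, from RefSeq, are printed to show the seeds, bases 2 to 8 in capitals.
hsa-miR-378a-3p: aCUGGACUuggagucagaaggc
hsa-miR-378i: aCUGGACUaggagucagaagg
hsa-miR-30e-5p: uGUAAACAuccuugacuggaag
hsa-miR-30a-5p: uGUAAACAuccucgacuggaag
hsa-miR-340-3p: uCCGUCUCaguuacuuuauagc
With CPM by library size only, r was 0.849, 0.797, 0.535, 0.651 and 0.125 in this order. None has the seed of miR-21-5p. The first 2 share a seed and nearly all other bases, as do the 2 members of the miR-30 family, so reads of close relatives may have been divided among them. The expected counts of miR-378a-3p were whole in 3 of 12 libraries, and those of the 4 others in all 12.

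miR-378a-3p, hosted in a gene of mitochondrial metabolism, went from a mean of 3799 CPM in hiPSC-EV down to 512 CPM in CPC-EV, then up to 1635 CPM in CMi-EV and on to 5162 CPM in CMm-EV. Its log2 fold change from hiPSC-EV to CPC-EV was -2.47 (edgeR adjusted p = 4.77e-04), beside -1.89 for miR-21-5p, and it rose by 1.65 from CPC-EV to CMi-EV (adjusted p = 0.00445). Unlike miR-21-5p, it also rose from CMi-EV to CMm-EV, by 1.48 (adjusted p = 0.0165), a call not made with library size only (0.93). A difference between the 2 miRNA in that step was not tested. miR-30a-5p was lowest in CPC-EV too (1378 CPM) and reached its highest mean in CMm-EV (7716 CPM). miR-340-3p, with means between 215 and 346 CPM, moved little.

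At the other end, miR-370-3p (r = -0.898, rho -0.516), miR-654-3p (r = -0.859, rho -0.381) and miR-127-3p (r = -0.830, rho -0.638) had the lowest r to miR-21-5p. Their counts were at or near 0 in most libraries outside CPC-EV, so r here restates the contrast of CPC-EV with the other groups, and the rank correlations (Spearman's rho) were weaker. All are encoded on chromosome 14, in the imprinted DLK1-DIO3 region, and had their highest level in CPC-EV, with means of 56.0, 163 and 173 CPM. Outside CPC-EV no group mean of these exceeded 6.62 CPM.

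**Figure D5:**
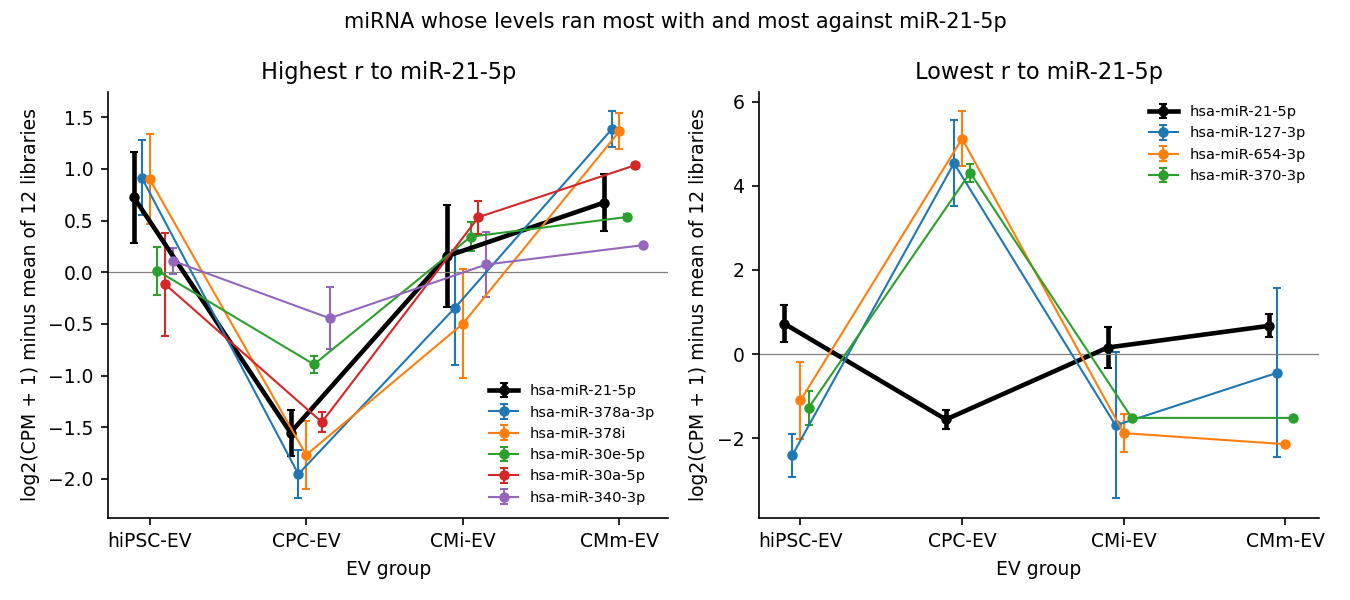
Group means of log2(CPM + 1), each minus the mean of its miRNA over 12 libraries, with SD (n = 3) as bars, for miR-21-5p (black) and the miRNA with the highest (left) and lowest (right) r to it. miR-21-5p and the 5 miRNA on the left have their minimum in CPC-EV, and the 3 miRNA on the right their maximum.

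The arms themselves ran together only in part. Between miR-21-5p and miR-21-3p, r was 0.673 over 12 libraries (Spearman's rho 0.650), place 18 among the 366 other expressed miRNA, and 0.459 without CPC-EV 3. The 5 miRNA most like miR-21-3p were miR-149-5p (r = 0.834), miR-1180-3p (0.825), miR-130a-3p (0.813), miR-107 (0.810) and miR-26a-5p (0.764). With CPM by library size only, r was 0.456, 0.467, 0.802, 0.744 and 0.304 in the same order. In CPC-EV 3, where miR-21-3p was at 0, miR-130a-3p also had 0 counts and miR-107 had 4, and rho was 0.273 for miR-130a-3p and 0.678 for miR-107. The part of that library in these values was not tested. The F-tests of the 5 miRNA over the 4 groups had adjusted p from 0.0392 for miR-26a-5p to 0.767 for miR-130a-3p.

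Of 18 miRNA known from cardiac stress and fibrosis, the setting in which miR-21 is best known in the heart, 16 were listed and 7 were expressed, beside 367 of all 1133 listed miRNA. Group means of miR-29a-3p and its relatives, miR-155-5p and miR-34a-5p were at most 81.8 CPM. Between hiPSC-EV and CPC-EV, 4 of the 18 were tested. Of these, 2 were called lower and 1 higher, beside 27.5% of all tested miRNA called and 16.0% called lower. The 4 log2 fold changes ran from -3.18 to 1.94, with a median of -1.94 beside -0.27 for all tested miRNA. Of the 4, miR-29a-3p (81.8 CPM in hiPSC-EV, 20.9 CPM in CPC-EV) passed the expression filter only through hiPSC-EV. The filter thus had a part in this median, and no conclusion is drawn from it. The 2 called lower, as miR-21-5p was, were miR-146a-5p, a brake on inflammatory signalling (log2 fold change -3.18, edgeR adjusted p = 0.00457), and miR-199b-5p (-2.24, adjusted p = 0.0360, and 0.0559 with library size only). The close relative miR-146b-5p did the opposite of miR-21-5p. It rose by 1.94 (adjusted p = 0.00348), fell by 1.59 on the log2 scale from CPC-EV to CMi-EV (adjusted p = 0.00193), and exceeded miR-21-5p in CPC-EV alone, with 5582 CPM.

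In the 2 other pairs where miR-21-5p was called, 4 and 6 of these 18 miRNA were tested. From CPC-EV to CMi-EV, miR-208a-3p, a miRNA of the myosin genes, rose and miR-146b-5p fell (28.4% of all tested miRNA were called), with a median of 1.55 beside -0.05 for all tested miRNA. From CPC-EV to CMm-EV, miR-208a-3p and miR-208b-3p rose and miR-146b-5p fell (44.5% of all were called), with a median of 1.17 beside -0.44. In both pairs miR-208a-3p (5.62 CPM in CPC-EV) passed the expression filter only through the later group. So did miR-199a-5p (10.8 CPM in CPC-EV) and miR-208b-3p (0 CPM) in the second pair. The filter thus had a part in these medians and in the calls of miR-208a-3p and miR-208b-3p, and no conclusion is drawn from them. From hiPSC-EV to CMi-EV 1 rose and 1 fell of 5 tested, beside 41.4% called among all tested miRNA, and from hiPSC-EV to CMm-EV 3 rose and 2 fell of 7, beside 53.6%. Each member called in these pairs passed the expression filter only through the group where it was higher. No conclusion is drawn from these counts. Between CMi-EV and CMm-EV, 0 of 4 were called by edgeR, beside 16.6%.

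miR-21 is expressed in fibroblasts, endothelial and blood cells, so markers of these were read beside it. The summed level of the 4 listed of 5 fibroblast and smooth muscle miRNA, nearly all miR-143-3p, went from 331 ± 130 CPM (SD, n = 3) in hiPSC-EV up to 2998 ± 1270 CPM in CPC-EV, then to 43238 ± 15891 CPM in CMi-EV and on to 170134 ± 40246 CPM in CMm-EV. miR-143-3p is also known from heart muscle, so this sum is a poor marker of fibroblasts. miR-145-5p of that list went from 102 ± 31.5 CPM in CPC-EV to 532 ± 26.2 CPM in CMi-EV and 726 ± 98.5 CPM in CMm-EV. From CPC-EV to CMi-EV, where miR-21-5p rose, miR-145-5p was called higher (log2 fold change 2.35, edgeR adjusted p = 0.00282). There 2 of 2 tested members of the list were called higher, beside 14.4% of all tested miRNA. From hiPSC-EV to CPC-EV, where miR-21-5p fell, miR-145-5p was not called (2.43, edgeR adjusted p = 0.0823). miR-199a-5p (291 ± 504 CPM) and miR-214-3p (20.5 ± 35.5 CPM) were seen in 1 of 3 CMi-EV libraries, CMi-EV 3, which also had the highest miR-21-5p of its group, and had 44.1 ± 15.1 and 9.16 ± 8.15 CPM in CMm-EV. The 2 endothelial arms of miR-126 summed to 93.9 ± 19.5, 69.7 ± 22.6, 64.0 ± 8.13 and 16.1 ± 14.2 CPM in the order of stages, and were at 0 in CMm-EV 1. The 5 listed of 6 blood cell and serum miRNA, led by miR-486-5p, summed to 7038 ± 1689, 1706 ± 344, 2479 ± 223 and 1583 ± 619 CPM. The authors count miR-486 among miRNA found only or mainly in striated muscle, so this sum is a poor marker of blood cells. The members of the blood cell and serum list went different ways. From hiPSC-EV to CPC-EV, where edgeR tested 2 of its members and called 1 lower and 1 higher, beside 27.5% of all tested miRNA called, miR-486-5p went from 7008 to 955 CPM and miR-122-5p from 0.426 to 724 CPM. miR-451a, which marks red cells, went from 3.16 to 23.7 CPM while miR-150-5p, of white cells, was at 0 in all 3 CPC-EV libraries but not in all of hiPSC-EV. The part of such cells or of serum in the level of miR-21-5p was not tested.

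Fragments of long transcripts in the same libraries were sparse. The host gene VMP1 had expected counts of 1 and 6.14 in hiPSC-EV 1 and 3, 27 and 12 in CMm-EV 1 and 3, and 0 in the other 8 libraries, among 131423 to 1908539 counts on transcripts per library. No fragment of it was thus seen in CPC-EV or CMi-EV, and CMm-EV 1 had both the most VMP1 counts and, in CPM, the highest level of miR-21-3p. TUBD1 had counts in CPC-EV 3 alone. The precursor MIR21 itself was not analysed among the transcripts.

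Of 15 transcripts known as targets of miR-21-5p, 13 were listed. Their summed level rose with stage, from 140 ± 78.7 CPM of transcript counts (SD, n = 3) in hiPSC-EV over 277 ± 72.3 in CPC-EV and 646 ± 210 in CMi-EV to 851 ± 414 in CMm-EV. It was led in each group by TPM1, a tropomyosin that muscle cells use in the sarcomere, with 45.9, 188, 430 and 773 CPM. Without TPM1, a choice made after its values were seen, the sums were 94.1 ± 56.9, 89.1 ± 50.1, 216 ± 106 and 78.5 ± 132, and the groups overlapped. PDCD4 had fragments in 2 of 12 libraries. No test was made on these sums, which describe fragments in EV and not the transcripts of the cells.

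Transcripts of 7 factors that bind the miR-21 gene, among them STAT3 and JUN, summed to 54.4 ± 31.8, 92.1 ± 75.8, 116 ± 93.5 and 239 ± 288 CPM in the order of stages. Those of 9 genes that process or load miRNA, such as DROSHA, DICER1 and AGO1, summed to 175 ± 21.6, 591 ± 201, 427 ± 122 and 144 ± 192 in the same order. AGO1, an Argonaute, gave the most of these in CPC-EV (331 CPM), the group in which miR-21-5p was lowest. The mean sums of cardiomyocyte and pluripotency transcripts moved in the same direction as those of the miRNA. Cardiomyocyte transcripts, led by TTN, went from 70.1 ± 46.0 CPM in hiPSC-EV to 1840 ± 351 in CPC-EV and 14088 ± 881 in CMi-EV. In CMm-EV they had 15030 ± 6890 CPM, from 7755 to 21456, overlapping with CMi-EV (13151 to 14901). Pluripotency transcripts went from 769 ± 162 in hiPSC-EV through 570 ± 120 in CPC-EV and 122 ± 85.5 in CMi-EV to 22.3 ± 29.1 in CMm-EV. Libraries of hiPSC-EV (584 to 889) and CPC-EV (437 to 668) overlapped. From hiPSC-EV to CPC-EV the means of LIN28A (184 to 334), LIN28B (8.09 to 53.4) and SALL4 (51.7 to 84.5) rose. Those of the other members fell. Fibroblast transcripts, led by FN1 in CPC-EV and CMi-EV, summed to 187 ± 162, 883 ± 197, 546 ± 225 and 233 ± 155 in the order of stages. FN1 alone gave 71.0, 700, 350 and 57.3 CPM of these. In CMi-EV 3 the sum was 294 CPM, below CMi-EV 1 (616 CPM) and CMi-EV 2 (729 CPM). The 5 listed of 7 endothelial transcripts summed to 55.1 ± 17.2, 24.8 ± 41.8, 2.19 ± 2.29 and 67.2 ± 110.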

How the data were processed

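Small RNA of 12 EV libraries was sequenced by the authors on an Illumina NextSeq 500. The deposited tables of the exceRpt pipeline hold expected counts per miRNA and per gencode transcript, made by the authors on hg38. The reads-per-million values (RPM) deposited by the authors are scaled to library totals. Expected counts, fractional in 9.11% of miRNA values above 0, were rounded. A miRNA was tested for a pair of groups if it reached 5 CPM in all 3 libraries of either group of that pair. Each pair was fitted on its own 6 libraries with TMM and edgeR 4.0.16 (R 4.3.3), whose quasi-likelihood test is two-sided. Calls were made at FDR 0.05 or below with a change of 1 or more on the log2 scale. The submitters' processing notes name edgeR 3.24.0. The method was also tested on simulated counts, but no outcome of that is given here and no result rests on it. Shares and ratios were compared by exact permutation (Python 3.11.15, numpy 2.4.6, scipy 1.17.1), whose smallest p here is 6.49e-05. A count of 0 was given a limit of 3 counts. Such limits and the Wilson intervals cover counting error only.

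The members and lists were chosen with earlier results of these data known. The miRNA named were both arms, the 5 most like each arm and the 3 least like miR-21-5p, the 5 most abundant miRNA of each group and the neighbours in rank, and the members of lists with the highest level or a call. Alternatives were further scalings and filters, DESeq2 1.42.0, edgeR's exact test, dispersions from 12 libraries, a replicate block, and leaving out each library in turn. The spread of replicates was beyond counting error (chi-square over its degrees of freedom 73.5 to 1036). Sequences are those of RefSeq on GRCh38.p14, which held 14 of the 15 names looked up among the miRNA most and least like either arm, miR-21-5p and miR-590-5p. Of the deposited tables, those of other RNA classes were not used here, nor were normalized values other than the RPM of miRNA.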

Additional observations from a re-analysis of the deposited data

How the results depend on the processing

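The fall of miR-21-5p from hiPSC-EV to CPC-EV, its rise from CPC-EV to CMi-EV and its difference across the 4 groups kept their direction and their call under every alternative tried. The rise from CPC-EV to CMm-EV did so except with library size only, where the log2 fold change was 0.97 and missed the fold threshold. Leaving out single libraries gave log2 fold changes of -2.03 to -1.63, 1.43 to 1.85 and 1.81 to 2.40 for these pairs, in that order. Among values without a call, that of miR-21-5p for CMm-EV against CMi-EV reversed to -0.30 with library size only. Its value for CMm-EV against hiPSC-EV ran from -0.52 to 0.00742 with single libraries left out, and that of miR-21-3p for CMi-EV against CPC-EV from -0.22 to 1.45. The cause of these shifts was not tested. miR-21-3p was called in no pair by any test. The share of miR-21-5p gave p between 5.84e-04 and 0.0115 without single libraries, and p = 0.0107 on the RPM of the authors (exact permutation tests). The ratio of the arms gave p between 0.118 and 0.990 without single libraries.

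Libraries with the same replicate number did not deviate together. Over 367 miRNA, the correlation of their deviations from the group means was between -0.120 and 0.0975 in 18 pairs, and 5 of 12 libraries correlated best with one of their own number. With the replicate block, which costs degrees of freedom, the number of miRNA called was 39 in place of 93 for CPC-EV against hiPSC-EV, 17 in place of 41 for CMm-EV against CMi-EV and 68 in place of 130 for CMm-EV against CPC-EV. The log2 fold changes of miR-21-5p were -1.86, 0.34 and 2.21 there, with the same calls as without the block. With filterByExpr, 27 miRNA were called for CMm-EV against CMi-EV, and between 20 and 60 with single libraries left out. In the order of the 5 miRNA most like miR-21-5p, 3 were shared with Spearman's rho and 2 with CPM by library size only, and for miR-21-3p 1 and 2.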
